A study of Mus musculus with 2 samples.

Results

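The ZBTB genes encode transcription factors that join a BTB domain to zinc fingers, and their transcripts were compared between RNA recovered with an antibody against FLAG-tagged Nanos2 and the RNA of the starting tissue. The genes were taken by name, as every probe of the array whose deposited symbol begins with Zbtb followed by a number. The rule gave 54 probes of 31 genes, out of 20161 named genes on the array. The set was proposed with its higher share in the precipitate already known, so the differences between precipitate and input are given as a description. No p-value is printed for any of these genes. Where they are said to be called or not called, that too describes the same comparison, and nothing is read from it. The tissue was the male gonad of MCH mice at embryonic day 14.5. All samples carried the transgene labelled Tg-Nanos2 enhancer-3xFLAG-Nanos2-3'UTR, so the tagged protein was driven by a Nanos2 enhancer. The 2 groups were RNA precipitated with Anti-FLAG M2-Agarose (FLAG IP) and RNA with no antibody step (input), with n = 2 arrays each, which the series text calls biological duplicates. No control precipitation, from wild-type gonads or with an irrelevant antibody, was analysed here.

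In a ZBTB protein the BTB domain at the amino terminus pairs with another BTB domain and binds corepressors, and the C2H2 zinc fingers at the carboxyl terminus read DNA. Members of the family set cell fate in lymphocytes, read methylated DNA or bind telomere repeats. In the testis the family is best known for Zbtb16 (Plzf), which maintains spermatogonial stem cells; Zbtb16 was not analysed here. Nanos2 is an RNA-binding protein of male germ cells that recruits deadenylation machinery to target transcripts. The comparison asks which transcripts, and here which ZBTB transcripts, were held in the FLAG IP at a higher or lower share than in the input.

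Values are the log2 processed signal less the 75th percentile of its array, called relative signal below, and a difference is FLAG IP minus input with its SE from limma. That percentile was 1026 and 1038 intensity units for the input arrays but 55.7 and 608 for FLAG IP replicates 1 and 2, which thus differed widely in brightness before scaling. The number of arrays limits the precision. Nanos2 itself rose by 1.88 ± 0.20 (adjusted p = 0.00477 in limma), and a single probe does not separate the transgene from the endogenous transcript. The median SD between replicates of the 31 genes was 0.070 for input and 0.26 for FLAG IP arrays, close to the 0.060 and 0.30 of all genes tested.

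Most ZBTB transcripts made up a larger share of the FLAG IP than of the input. The difference was above 0 for 27 of the 31 genes, and its median was 0.96, with the middle 50% of genes between 0.34 and 1.55. Over all 15266 genes tested the difference was above 0 for 7959, and the median was 0.07. Zbtb11, Zbtb25 and Zbtb24 stood highest, at 5.42-fold, 4.59-fold and 4.34-fold, and only Zbtb8os lay more than 1 log2 unit below the input. That order rests on the brightest probe: with the mean of a gene's probes the log2 differences were 1.48 for Zbtb11, 2.20 for Zbtb25 and 0.57 for Zbtb24. Brightness was the mean over all 4 arrays, so the choice of probe used the FLAG IP values as well. On the input arrays alone another probe was the brightest for Zbtb24, at a difference of 0.26, and for Zbtb6, at 0.67. All 31 genes passed the filter on dim probes, which asked for both arrays of at least 1 group to be well above background. In fact each was well above background on both input arrays, and 27 were so on both FLAG IP arrays, the others being Zbtb6, Zbtb37, Zbtb38 and Zbtb39 with 1 each.

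**Figure D1:**
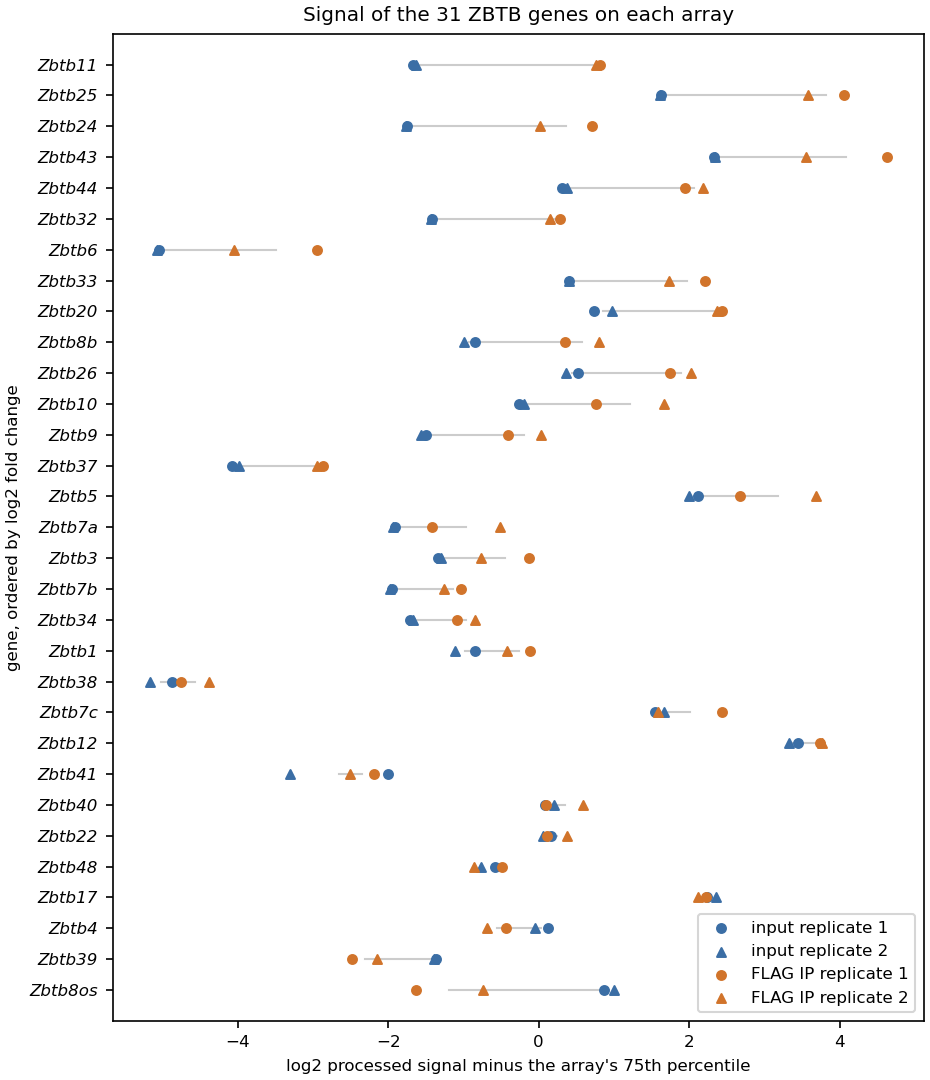
Relative signal of each of the 31 ZBTB genes (horizontal axis, log2 processed signal minus the array's 75th percentile) on the input arrays (blue) and the FLAG IP arrays (orange), with circles for replicate 1, triangles for replicate 2 and a grey line between the group means. Genes are ordered by log2 fold change, from Zbtb11 at 2.44 to Zbtb8os at -2.12. In 22 of them both orange points lie to the right of both blue points, against 42.0% of all genes tested.

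Across all genes tested, limma called 28.0% higher in the FLAG IP and 25.4% lower at an adjusted p under 0.05. Of the 31 ZBTB genes 17 (54.8%) were called higher, 2 (6.45%) lower and 12 neither way; the set was picked on this contrast, so nothing is read from that excess. Both FLAG IP arrays lay above both input arrays for 22 ZBTB genes, against 42.0% of all genes, and below both for 4, against 38.2%. The count of calls rested on single arrays, for all genes as for the ZBTB genes. A fit without 1 array leaves a single array in its group, so only its median is given here. The ZBTB median was 0.97 without input replicate 1 and 0.94 without input replicate 2, against 0.13 and 0.07 over all genes. It was 0.72 without FLAG IP replicate 1 and 0.87 without replicate 2, against 0.07 and 0.15. Input replicate 1 was alone on its slide, so a block for slide leaves input replicate 2 as the only input compared. That fit is no separate check from the one without input replicate 1, with the same ZBTB median of 0.97. It called 3 ZBTB genes higher and 1 lower, against 1431 and 1545 of all 15266 genes. With normexp background correction, 5 were called higher and 1 lower, against 1275 and 1401. The median difference moved less, between 0.72 and 0.97 over the fits that left out 1 array.

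Other cell types of the gonad moved with this contrast, in which 28.0% of all genes were called higher and 25.4% lower. The summed relative level (signal over the 75th percentile, linear) of 9 Sertoli cell markers was 133 and 114 on the input arrays and 19.3 and 20.5 on the FLAG IP arrays, and 8 of the 9 fell, while Fgf9 rose by 2.21 (adjusted p = 0.00395 in limma). All 6 Leydig cell markers fell, from 140 and 128 to 20.5 and 19.5, as did all 7 markers of the interstitial mesenchyme, from 293 and 278 to 66.0 and 42.8. Of 5 erythroid markers tested 5 fell, from 410 and 380 to 60.2 and 48.1. Of 6 endothelial markers 3 fell (from 6.94 and 5.52 to 2.97 and 1.98; 1 of 6 under normexp), and of 5 macrophage markers 3 fell (from 4.50 and 4.40 to 1.03 and 0.913; 1 of 5 under normexp). On both FLAG IP arrays, 8 of the Sertoli, 6 of the Leydig, 7 of the mesenchymal, 4 of the erythroid, 4 of the endothelial and 2 of the macrophage markers were still well above background. The 10 germ cell markers went from 89.2 and 94.5 to 162 and 182, with 4 rising (Dazl, Ddx4, Tdrd1 and Nanos2) and Dnd1 falling. Under normexp 2 of the 10 were called higher and 0 lower, against 1275 and 1401 of all 15266 genes. Relative to all genes, the germ cell median was 0.40 as reported, 0.0025 under normexp and -0.08 with no filter on dim probes. The 30 ZBTB genes other than Zbtb8os summed to 45.9 and 45.1 in the input and to 104 and 92.0 in the FLAG IP. The part of these other cell types in the ZBTB differences was not tested. In the level of a transcript in whole gonads, the number of cells of a type and the RNA per cell cannot be told apart.

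Members that act in DNA methylation differed among themselves. Zbtb33 (Kaiso), which binds methylated CpG sites, had a relative signal of 0.41 on both input arrays and 2.21 and 1.73 on the FLAG IP arrays, a difference of 1.56 ± 0.23. Its groups stood well apart, and its other probe, 1.996 ± 0.22, placed it on the same side. Zbtb4, another reader of methylated CpG, went the other way, from 0.12 and -0.05 in the input to -0.43 and -0.68 in the FLAG IP, a difference of -0.59 ± 0.19 that limma did not call. Both FLAG IP arrays of Zbtb4 lay below both input arrays, and its other probe read -1.32 ± 0.23. Some alternatives did call it lower, among them median centring, at -0.72, and the mean of its probes, at -0.96. Zbtb38, the remaining methyl-CpG reader of the family, was dim, at -4.87 and -5.17 in the input and -4.75 and -4.38 in the FLAG IP. Its difference of 0.45 ± 0.23 turned with the processing, to -1.02 under quantile normalization and 1.65 under normexp, so no direction is given for it. The median over all genes was 0.006 and 0.38 in these settings.

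Zbtb43 is known from male germ cells before birth, where it acts in the preparation of DNA for de novo methylation. It had relative signals of 2.33 and 2.35 in the input and 4.63 and 3.55 in the FLAG IP. The difference was 1.76 ± 0.41, and although the FLAG IP arrays lay 1.07 log2 units apart, both were above both input arrays. A probe to the same transcript gave 1.69 ± 0.21.

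The 7 members with known roles in lymphoid and myeloid cells had a median difference of 0.96, with 5 called higher and none lower, against 28.0% and 25.4% of all genes. Under normexp the 5 became 2, and with slide as a block also 2, against 1275 and 1431 of all 15266 genes called higher. Neither fit called one of the 7 lower, against 1401 and 1545 of all genes. The median of the 7 was 0.97 without input replicate 1 and 0.94 without input replicate 2. Over all genes it was then 0.13 and 0.07. Zbtb25, a repressor of NFAT-driven genes in T cells, read 1.63 and 1.61 in the input and 4.06 and 3.58 in the FLAG IP, a difference of 2.20 ± 0.23. Zbtb32, a repressor in activated lymphocytes, went from -1.41 and -1.43 to 0.28 and 0.14, a difference of 1.64 ± 0.16. For both genes the gap between the groups was larger than the gap within either. Zbtb7b (ThPOK), the commitment factor of CD4 T cells, read -1.95 and -1.98 in the input and -1.03 and -1.25 in the FLAG IP, a difference of 0.83 ± 0.17. Zbtb1, needed for lymphoid development, read -0.85 and -1.11 in the input and -0.11 and -0.41 in the FLAG IP, a difference of 0.72 ± 0.21. Their groups did not overlap, but the differences were smaller than that of Zbtb25.

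Zbtb7a (LRF), a proto-oncogene and regulator of B against T cell fate, read -1.91 and -1.93 in the input and -1.42 and -0.51 in the FLAG IP. Its difference of 0.96 ± 0.35 was not called, and on this probe the FLAG IP arrays differed in size and shared a direction. Another passing Zbtb7a probe, well above background on 1 FLAG IP array, gave 0.09 ± 0.54. It read -3.29 and -3.32 in the input and -3.94 and -2.49 in the FLAG IP, without a shared direction. With the mean of its probes Zbtb7a stood at 0.52. Zbtb17 (Miz-1), the partner through which MYC represses genes, hardly differed: 2.23 and 2.36 in the input and 2.23 and 2.12 in the FLAG IP, a difference of -0.12 ± 0.17. Both FLAG IP arrays lay just below both input arrays, within the SE.

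Zbtb24, whose human counterpart is mutated in the ICF syndrome of immune deficiency and unstable centromeric DNA, was the least certain of the high values. Its brightest probe went from -1.75 and -1.76 in the input to 0.71 and 0.01 in the FLAG IP, a difference of 2.12 ± 0.29. The other 2 probes, both placed on the RefSeq transcript by the array annotation, gave 0.26 ± 0.16 and -0.66 ± 0.37, the latter above background on just 1 FLAG IP array. With the mean of the 3 probes the gene stood at 0.57. Without FLAG IP replicate 1 or 2 another probe became the brightest, and the gene read 0.27 or 0.25.

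**Figure D2:**
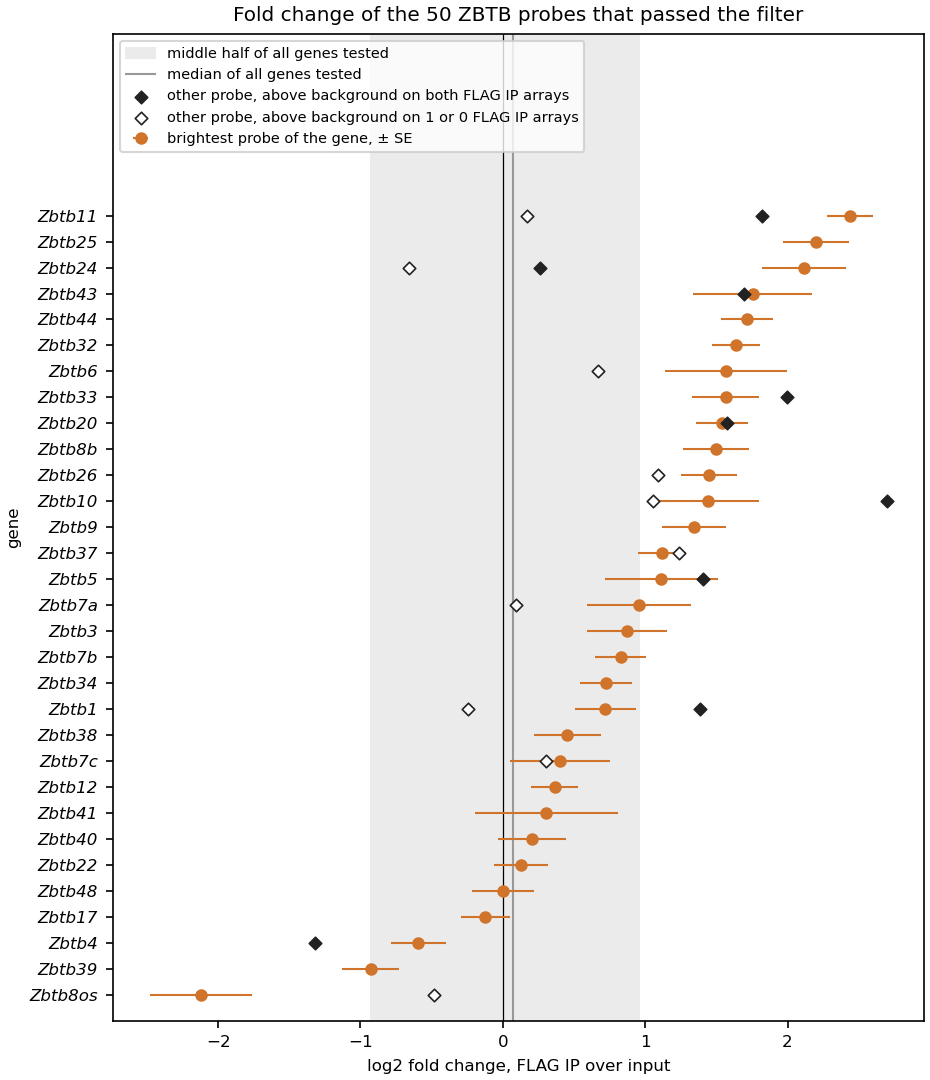
Log2 fold change (FLAG IP over input) of the 50 ZBTB probes that passed the filter, by gene; orange circles with SE bars mark the brightest probe of each gene, filled diamonds other probes above background on both FLAG IP arrays, and open diamonds other probes above it on 1 or 0. The grey band is the middle 50% of all genes tested and the grey line their median of 0.07; the probes of Zbtb24 span 2.78 log2 units, while those of Zbtb20 and Zbtb43 lie on top of each other.

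The 3 members that bind telomere repeats or act at telomeres were mixed. Zbtb10 read -0.26 and -0.20 in the input and 0.76 and 1.66 in the FLAG IP, a difference of 1.44 ± 0.35. A second Zbtb10 probe gave 2.70 ± 0.16, the largest value of any ZBTB probe that passed, and another, dim one 1.05 ± 0.83. Zbtb48 (TZAP), which trims long telomeres, read -0.59 and -0.77 in the input and -0.49 and -0.86 in the FLAG IP. The FLAG IP arrays enclosed the input arrays, and the sign of its difference changed with the processing. Zbtb40 read 0.08 and 0.21 in the input and 0.10 and 0.59 in the FLAG IP, a difference of 0.20 ± 0.23 with overlapping groups.

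Zbtb20, a repressor that shapes liver metabolism and the hippocampus, read 0.74 and 0.98 in the input and 2.44 and 2.37 in the FLAG IP, a difference of 1.54 ± 0.18. Its 2 passing probes lay 0.033 log2 units apart, the closest of any gene of the set. The other probe, at 1.57 ± 0.40, was less precise, with 1.05 and 0.06 on the FLAG IP arrays. Under normexp Zbtb20 stood at 0.95, not called, where the median over all genes was 0.38. Zbtb5, a repressor of the cell cycle inhibitor p21, read 2.12 and 2.002 in the input and 2.67 and 3.68 in the FLAG IP. The difference of 1.11 ± 0.39 was not called, with the FLAG IP arrays 1.01 log2 units apart, and the other Zbtb5 probe gave 1.41 ± 0.19 with closer replicates.

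The remaining 15 ZBTB factors, many of them little studied, had a median difference of 1.12, with 9 called higher and 1 lower, against 28.0% and 25.4% of all genes. Under normexp 2 were called higher and with slide as a block 1, against 1275 and 1431 of all 15266 genes. Neither fit called one of the 15 lower, against 1401 and 1545 of all genes. The median of the 15 was 1.07 without input replicate 1 and 1.17 without input replicate 2, against 0.13 and 0.07 over all genes. Zbtb11, which regulates hematopoiesis and nuclear genes of mitochondrial proteins, had the largest difference of the set. It read -1.67 and -1.63 in the input and 0.82 and 0.76 in the FLAG IP, a difference of 2.44 ± 0.16, with both groups tight. A second probe gave 1.82 ± 0.17, and another, well above background on 1 FLAG IP array, 0.17 ± 0.95. Zbtb44 read 0.32 and 0.38 in the input and 1.95 and 2.18 in the FLAG IP (1.72 ± 0.18). Zbtb8b, listed on the array as Zbtb8, read -0.85 and -0.99 in the input and 0.35 and 0.80 in the FLAG IP (1.50 ± 0.22). Zbtb26 read 0.52 and 0.36 in the input and 1.75 and 2.03 in the FLAG IP (1.45 ± 0.19). In these genes the groups were separate by at least 1 log2 unit.

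Zbtb9 followed with -1.50 and -1.57 in the input and -0.41 and 0.03 in the FLAG IP (1.34 ± 0.22), and Zbtb34 with -1.71 and -1.67 against -1.08 and -0.84 (0.73 ± 0.18). Zbtb3 read -1.33 and -1.30 in the input and -0.12 and -0.76 in the FLAG IP, and its difference of 0.87 ± 0.27 was not called. A pair of dim genes was also higher. Zbtb6 read -5.05 and -5.08 in the input and -2.94 and -4.05 in the FLAG IP (1.57 ± 0.42), and Zbtb37 read -4.08 and -3.98 against -2.87 and -2.95 (1.12 ± 0.16). Each exceeded background clearly on just 1 FLAG IP array, and without FLAG IP replicate 1 a different Zbtb6 probe stood for the gene, at 0.72.

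Several of these factors showed little difference. Zbtb12 read 3.45 and 3.33 in the input and 3.74 and 3.76 in the FLAG IP, a difference of 0.36 ± 0.16. It was called under quantile normalization, at 0.58, and stood at -0.27 under normexp, where the median over all genes was 0.38. Zbtb7c, a relative of Zbtb7a, read 1.55 and 1.67 in the input and 2.44 and 1.58 in the FLAG IP (0.40 ± 0.34). Zbtb22 read 0.16 and 0.06 in the input and 0.11 and 0.38 in the FLAG IP (0.13 ± 0.18). The groups of Zbtb7c and Zbtb22 overlapped, and the signs of both changed with the processing. Zbtb41 had the widest spread in the input, at -2.01 and -3.30, against -2.19 and -2.50 in the FLAG IP (0.31 ± 0.49). Its value was 0.95 without input replicate 1 and -0.34 without input replicate 2.

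In the reported fit Zbtb39 was the only ZBTB factor called lower. It read -1.37 and -1.40 in the input and -2.48 and -2.14 in the FLAG IP, a difference of -0.93 ± 0.19, and just 1 FLAG IP array was well above background. Under normexp it stood at -0.08, where the median over all genes was 0.38. The other gene called lower, Zbtb8os, matches the name rule but encodes archease, a cofactor of the tRNA ligase complex, and is no BTB zinc finger gene. It read 0.87 and 1.0 in the input and -1.63 and -0.74 in the FLAG IP, a difference of -2.12 ± 0.35, so that it was 4.35-fold lower. Its other, dim probe gave -0.48 ± 0.16. Without Zbtb8os the median of the remaining 30 genes was 1.04, with 17 called higher and 1 lower, an alternative added after the data were seen.

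**Figure D3:**
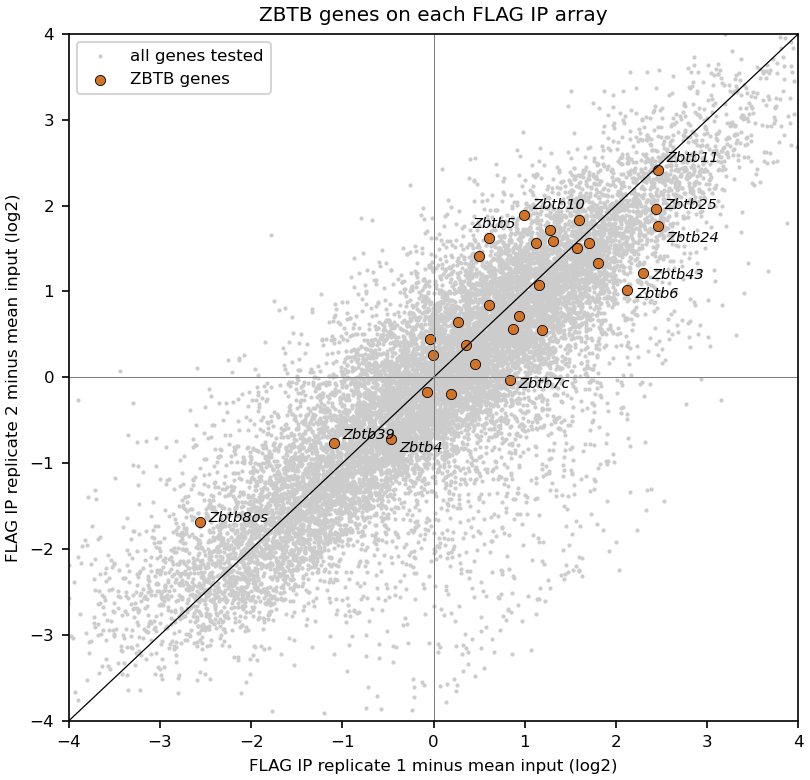
Each gene's relative signal on FLAG IP replicate 1 (horizontal) and replicate 2 (vertical) minus its mean input, in log2 units, for the ZBTB genes (orange) and all genes tested (grey), with the line of equal values in black. The median of the ZBTB genes was 0.94 from replicate 1 and 1.02 from replicate 2, and 17 of the 31 lie below the line, with a higher value on replicate 1. Of all 15266 genes tested 8827 lie below it.

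With the probes chosen on all 4 arrays, the FLAG IP arrays gave the ZBTB genes a like median although their brightness differed. The median difference was 0.94 from replicate 1 alone and 1.02 from replicate 2 alone, against 0.16 and -0.003 over all genes tested. With the other FLAG IP array left out and the probes chosen anew, it was 0.87 from replicate 1 and 0.72 from replicate 2. The medians over all genes were then 0.15 and 0.07, and the likeness thus depended on the choice of probe. Replicate 1 was above replicate 2 for 17 of the 31 genes, and for 8827 of all 15266 genes tested. Zbtb43, Zbtb6 and Zbtb7c were higher on replicate 1, and Zbtb10, Zbtb5 and Zbtb7a on replicate 2, by 0.86 to 1.10 log2 units in size.

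Of the 54 probes 50 passed the filter, the exceptions being 2 probes of Zbtb40 and 1 each of Zbtb20 and Zbtb7a. The difference was above 0 for 42 of the 50 and below 0 for 8. The median was 1.004, against 0.02 over all 26529 probes that passed. Of the 50 probes 36 were well above background on both FLAG IP arrays, 13 on 1 and 1 on neither. Of the 31 genes 15 had more than 1 passing probe, and the median range between probes of a gene was 0.73, against 0.64 over the 5941 genes of that kind. The range exceeded 1 log2 unit in Zbtb24 (2.78), Zbtb11 (2.27), Zbtb10 (1.65), Zbtb8os (1.64) and Zbtb1 (1.63). Probes lay on both sides of 0 in Zbtb24 and Zbtb1. In Zbtb1 the negative probe, at -0.24 ± 1.10, was above background on neither FLAG IP array, while a further probe gave 1.39 ± 0.20.

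Some ZBTB genes lie side by side in the genome, and neighbours did not share their size of difference in every case. By their order in the RefSeq annotation of GRCm38.p6, Zbtb25 and Zbtb1 are adjacent on chromosome 12, with no coding gene between them, and differed by 2.20 and 0.72. Zbtb34 and Zbtb43 are adjacent on chromosome 2 and differed by 0.73 and 1.76. Zbtb6 and Zbtb26, also adjacent on chromosome 2, were alike at 1.57 and 1.45. Zbtb8b and Zbtb8os, on chromosome 4 with 1 coding gene between them, lay on opposite sides, at 1.50 and -2.12. The array annotation uses another genome build, so no coordinates are given.

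As reported, a pair of families that share one of the domains had medians between those of the ZBTB genes and of all genes, but that order changed with the processing. Of 244 numbered Zfp genes, most of which encode zinc fingers without a BTB domain, 232 were tested, 94 (40.5%) rose, 32 (13.8%) fell, and the median was 0.55. Of 27 Kelch-like genes, which join a BTB domain to Kelch repeats and serve as adaptors of cullin 3 ubiquitin ligases, 26 were tested, 10 (38.5%) rose, 6 (23.1%) fell, and the median was 0.36. Relative to all genes the Kelch-like median changed sign with the filter, to -0.18 with no filter on dim probes, where that of the Zfp genes was 0.08 and that of the ZBTB genes 0.40. Under normexp these were 0.53 for the Kelch-like, 0.35 for the Zfp and 0.57 for the ZBTB genes. Under normexp 38 and 6 of the Zfp genes and 3 and 2 of the Kelch-like genes were called higher and lower. With slide as a block it was 33 and 8, and 1 and 1. Over all 15266 genes normexp called 1275 and 1401, and the slide block 1431 and 1545. The differences between families were not tested.

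**Figure D4:**
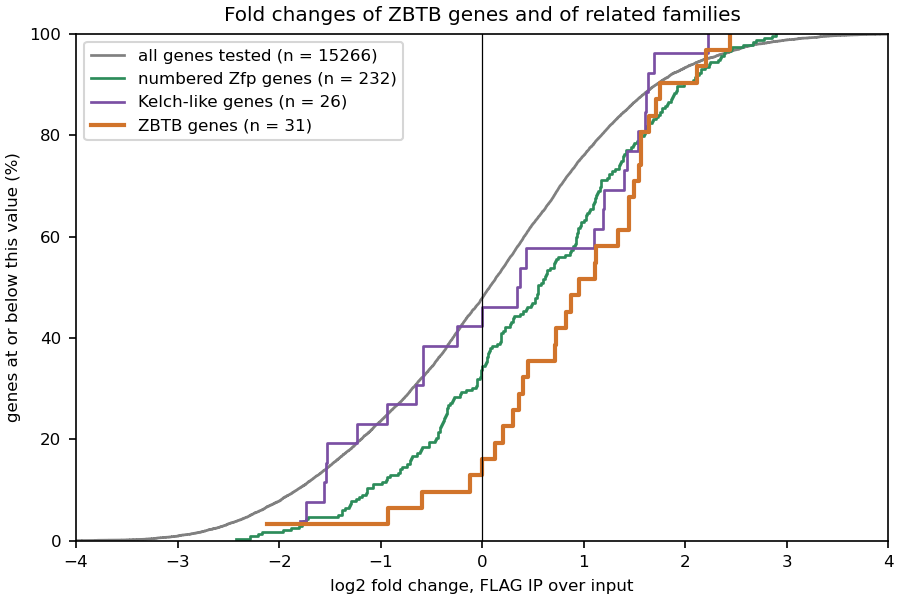
Cumulative share of genes (vertical, %) at or below each log2 fold change of FLAG IP over input (horizontal) for the 31 ZBTB genes (orange), 232 numbered Zfp genes (green), 26 Kelch-like genes (purple) and all 15266 genes tested (grey). The ZBTB curve lies furthest to the right at its middle, at a median of 0.96, against 0.55, 0.36 and 0.07; the order of the Zfp, Kelch-like and all genes changes with the processing.

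Genes of the same class that the name rule missed were also tested. Of 14 BTB zinc finger or closely related BTB genes filed under other names 8 (57.1%) rose and 2 (14.3%) fell, against 28.0% and 25.4% of all genes, with a median of 0.89. The list was drawn up with the earlier results known and is no independent evidence. Bcl6, the repressor that drives germinal centre B cells, went from 0.40 and 0.29 in the input to 2.20 and 2.17 in the FLAG IP, a rise of 1.84 ± 0.16 (adjusted p = 0.00394 in limma). Its paralogue Bcl6b, which acts in spermatogonial stem cells, rose by 2.22 ± 0.18 (adjusted p = 0.00381 in limma). Zfp131 rose by 2.35, Hic2 by 1.85, and Nacc1 and Nacc2, which carry a BTB domain without zinc fingers, by 0.91 and 0.61. Hic1, a tumour suppressor paralogous to Hic2, fell by 1.67 on the log2 scale, from 4.32 and 4.30 to 2.86 and 2.42 (adjusted p = 0.00694 in limma), and Zfp651 fell by 1.19. The paralogues Hic1 and Hic2 thus changed in opposite directions. Gzf1, Mynn, Patz1 and Zbtb14 were not called, at 0.79, 0.85, 0.65 and 0.87. With slide as a block limma called 5 of the 14 higher and 0 lower, against 1431 and 1545 of all 15266 genes. At an unadjusted p under 0.05 in limma it was 6 and 1, against 2847 and 2855. Under normexp 4 were called higher and 1 lower, against 1275 and 1401.

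By gene ID, 7 genes now carry a Zbtb symbol in RefSeq but another name in the deposited file, a group formed after the files were seen. Of these 5 (71.4%) rose and none fell, against 28.0% and 25.4% of all genes, with a median of 1.24. Zbtb18, a repressor in cortical neurons and muscle, rose by 2.32 ± 0.21, from 0.55 and 0.67 to 3.12 and 2.73 (adjusted p = 0.00398 in limma). Zbtb49 rose by 1.80, Zbtb21 by 1.73, Zbtb8a by 1.24 and Zbtb42 by 1.03, the latter well above background on 1 FLAG IP array. Zbtb14 and Zbtb46, the marker factor of classical dendritic cells, were not called, at 0.87 ± 0.48 and 0.20 ± 0.18. Zbtb14, Zbtb18 and Zbtb21 belong to the previous list as well. With slide as a block 2 of the 7 were called higher, against 1431 of all 15266 genes, and under normexp 1, against 1275.

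Transcripts of proteins that BTB domains recruit were tested as well. Of 17 corepressor and ubiquitin ligase partners 5 (29.4%) rose, 7 (41.2%) fell and 5 were not called, against 28.0% and 25.4% of all genes, with a median of -0.78. Among the core subunits of the nuclear corepressor complex, Ncor1 fell by 1.78 on the log2 scale (adjusted p = 0.00671 in limma), from 2.09 and 2.02 to 0.04 and 0.52. The deacetylase gene Hdac3 fell by 1.86, while Tbl1xr1, which encodes a WD40 subunit of the same complex, rose by 2.08 (adjusted p = 0.00514 in limma). The paralogues Sin3a and Sin3b parted, with a rise of 1.33 in Sin3a and a fall in Sin3b, whose difference was -1.73. So did Bcor, which binds the BTB domain of Bcl6, at -0.72, and its paralogue Bcorl1, at 2.10. Hdac1 rose by 1.44 and Hdac2 fell by 1.25. Cul3, the cullin that BTB adaptors bind, rose by 0.82. With the mean of their probes Tbl1xr1 stood at 0.76, Bcorl1 at 1.07 and Sin3b at -1.11, and under quantile normalization Sin3b stood at -0.76. Under normexp, where the median over all genes was 0.38, Bcorl1 stood at 1.35, and Cul3 and Hdac2 were no longer called, at 0.19 and -0.34. With slide as a block 2 of the 17 were called higher and 1 lower, against 1431 and 1545 of all 15266 genes. Under normexp it was 2 and 4, against 1275 and 1401. Without input replicate 1 the median of the 17 was -0.75, against 0.13 over all genes.

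Of 12 genes named as partners or targets of Plzf, or beside it, in spermatogonia, 11 were tested, 7 (63.6%) rose and none fell, against 28.0% and 25.4% of all genes, with a median of 0.91. Foxo1, a transcription factor of spermatogonial stem cells, read 2.04 and 2.03 in the input and 4.52 and 5.14 in the FLAG IP, a rise of 2.80 ± 0.27 (adjusted p = 0.00414 in limma). Sall4, which binds Plzf, rose by 1.22, and its paralogue Sall1 by 2.21, the latter well above background on 1 FLAG IP array. Bmi1, a Polycomb gene, rose by 1.43, the GDNF receptor gene Gfra1 by 1.36, Taf4b by 0.91 and Id4 by 0.88; Gfra1 and Taf4b were well above background on 1 FLAG IP array. Kit, which Plzf represses, and Etv5 were not called, both at 0.43, nor were Ddit4 at -0.02 and Utf1 at -0.20. Under quantile normalization Ddit4 was called higher at 0.67 and Gfra1 was no longer called, at 0.35. Under normexp Ddit4 stood at -0.71 and Foxo1 at 1.66, not called, where the median over all genes was 0.38. With slide as a block 2 of the 11 were called higher and 0 lower, against 1431 and 1545 of all 15266 genes. Under normexp limma called 0 of the 11, against 1275 genes higher and 1401 lower. At an unadjusted p under 0.05 in limma, normexp gave 3 of the 11 higher, against 3107 of all genes.

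The ZBTB genes kept their sides of 0 for the most part when the processing changed. Of the 31 genes 24 kept the sign of their difference under each processing in which they were tested. The other 7 were Zbtb38, Zbtb7c, Zbtb12, Zbtb41, Zbtb40, Zbtb22 and Zbtb48. The other eBayes settings and the replicate block cannot change a difference, so they do not bear on its sign. Without the dim filter, and with all 4 arrays required above background, the differences of the genes tested were as reported. Zbtb11 ranged from 1.48 to 2.46, Zbtb25 from 1.49 to 2.44, and Zbtb32 from 1.51 to 1.71. Normexp and the absence of a dim filter shifted the median of all genes to 0.38 and 0.55. Relative to that median the ZBTB median was 0.88 as reported, 0.57 under normexp and 0.40 with no dim filter. In the authors' deposited table the ratio of FLAG IP to input was 4.99 for Zbtb11, 3.99 for the brightest Zbtb24 probe and 0.211 for Zbtb8os, with a median of 0.929 over all probes that passed.

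**Figure D5:**
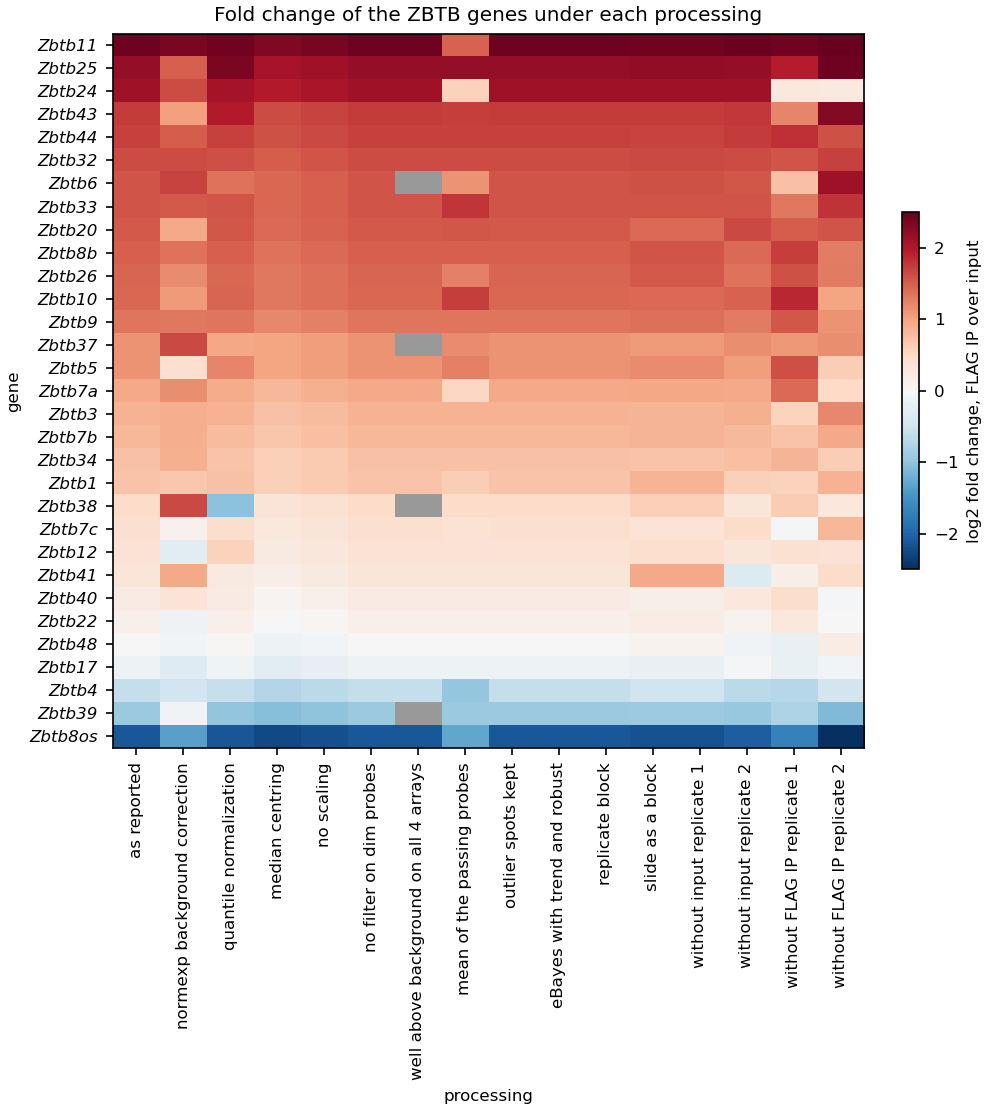
Log2 fold change of FLAG IP over input (colour, red higher and blue lower) of each ZBTB gene (rows) under the reported processing and 15 alternatives (columns), with grey where a gene was not tested; the unscaled values are relative to the median of all genes. The upper rows stay red in every column, from 1.48 to 2.46 for Zbtb11, and Zbtb38 runs from -1.02 to 1.65.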

How the data were processed

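RNA from FLAG IP and input was labelled with Cy3 from 0.20 µg and read on 4 one-colour Agilent arrays, 2 per group, and scanned spots were quantified in Agilent Feature Extraction 9.5 (submitters' processing notes). Per the file headers, the processed signal of each spot is an intensity from which background was removed before the files were deposited. The authors' deposited table gives a ratio of FLAG IP to input per probe, with the reference of its p-value not given in the sources used here; its raw signal lay within 1% of the mean of the arrays of a group for 99.8% of values. It left 0 per-sample columns unused.

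The 43379 non-control spots of an array stand for 41174 probes, and none was saturated. Signals were scaled to the 75th percentile and taken to log2, outlier spots (52 to 104 per array) were left out, and spots of a probe were averaged. A probe passed if well above background on both arrays of a group. The passing probe with the highest mean over all 4 arrays, called the brightest, stood for its gene. Names came from gene IDs in RefSeq's GRCm38.p6 table, where all 54 ZBTB probes matched; of all probes 31004 matched by gene ID, 309 by an older symbol, 1263 kept the file's name and 8598 had none.

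Groups were compared with limma 3.58.1 in R 4.3.3 (lmFit, eBayes, two-sided, Benjamini-Hochberg over 15266 genes, threshold 0.05, with 2 residual and 2.08 prior degrees of freedom). The p-values measure only the spread between these arrays. Genes named are the ZBTB genes, members of the lists and Nanos2. Some values of list members are not reported here. Members and lists were chosen with earlier results of these data known. The fit was also run on simulated arrays, where all genes of a group shared a spread set below that of these arrays and few genes were raised. That setting is simpler than these data, so it does not bear on how many calls here are right. Alternatives were normexp (offset 50, on the median signal, as the files give no mean signal), quantile, median centring, no scaling, 3 choices of probe filter or probe average, outlier spots kept, other eBayes settings, a block for replicate or for slide, and fits without each array in turn.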

Additional observations from a re-analysis of the deposited data

How the results depend on the processing

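As reported, 4275 genes were called higher and 3883 lower, among them 17 and 2 ZBTB genes. Normexp gave 1275 and 1401 (ZBTB 5 and 1), and slide as a block 1431 and 1545 (3 and 1). No dim filter gave 3385 and 2794 of 20157 genes (ZBTB 11 and 1). No scaling gave 0 and 0 (ZBTB 0 and 0), with 0 and 4047 genes at an unadjusted p under 0.05 in limma. Leaving out 1 array gave 0 to 6829 genes higher and 0 to 6053 lower, with 0 to 22 and 0 to 3 ZBTB genes; both zeros came without input replicate 1. The ZBTB genes lower numbered 0 without input replicate 2 as well. In these fits the lone array of a group is assumed to vary like the other group. The ZBTB median, 0.96 as reported, was 0.82 under median centring, 0.88 relative to all genes without scaling, 0.83 with the mean of the probes, 0.72 to 0.97 with 1 array left out and 1.04 without Zbtb8os, the last chosen after seeing the data. With the replicate block 4130 genes were called higher and 3875 lower, among them 17 and 2 ZBTB genes; the arrays share only a number, and the correlation of their deviations was 0.05. Among the ZBTB genes the block gained the calls of Zbtb5 and Zbtb7a and lost those of Zbtb34 and Zbtb1. Of 47 other genes (related BTB genes, partners, the Plzf list and Nanos2) 4 lost their call and 2 gained one. Bcor, Cul3 and Nacc2 were among those that lost it. No ZBTB gene, related BTB gene or partner called as reported took the opposite sign under these alternatives. The cause of these changes was not tested. Dim signal on FLAG IP replicate 1, where 42.7% of spots were well above background, limits Zbtb6, Zbtb37, Zbtb38 and Zbtb39.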
